A study of Mus musculus with 30 samples.

Results

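Collagens are triple helices of 3 α chains, and each chain is the product of its own gene. Fibrillar chains build the load-bearing fibrils of tendon and of the connective tissue that wraps muscle fibres, with type I collagen (COL1A1 and COL1A2) and type III collagen (COL3A1) as the main ones. Type IV chains form the network of the basement membrane that coats each muscle fibre and capillary, and types XV and XVIII lie at its outer face. COL6 chains form beaded filaments between the basement membrane and the fibrils. The FACIT chains sit on the surface of fibrils and link them to their surroundings. In skeletal muscle most of this mRNA is known to come from fibroblasts and related cells rather than from the muscle fibres.

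The collagen chain genes were taken as every gene whose symbol, in capitals, reads COL, a number, A and a number, which gave 44 of the 21073 genes measured. Of these, 11 encode fibrillar chains, 8 basement membrane chains, 6 COL6 chains, 9 FACIT chains, 4 transmembrane chains, and 6 belong to none of these families. Poly(A) RNA was sequenced from the extensor digitorum longus (EDL), a fast muscle of the lower hindlimb, of 30 female SJL/J mice, 5 in each of 6 groups. EAE mice had experimental autoimmune encephalomyelitis, a mouse model of multiple sclerosis, induced by the myelin peptide [Ser140]-PLP139-151 in complete Freund's adjuvant (CFA) without pertussis toxin, which gives a mild disease. OVA mice received ovalbumin in the same adjuvant, so that they share the adjuvant but not the myelin antigen, and Ctrl mice were not immunized. Muscles were collected on day 14, at the peak of disease, or on day 40, in the second remission, from different mice on each day. All mice carried the genotype label WT SJL, and their age is not given in the sources used here. Levels are given as RPKM, a read count divided by the exon length of the gene and by the depth of the library, which can be compared between genes. A log2 fold change is a difference in mean log2(RPKM + 0.1) with its standard error (SE), a scale on which changes of low genes are understated.

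Each library held an estimated 18.2 to 24.8 M reads in genes. Principal components of day 14 were taken from the 8348 genes with a mean above 3 RPKM over the 15 mice of that day. On the second component the mice numbered 1 in the Ctrl, OVA and EAE groups lay together, at 19.9 to 31.2. The other 12 mice of that day lay below them, at -27.4 to 10.5. The day 14 counts are therefore also given without the 3 mice numbered 1. Markers of fast muscle fibres, such as ACTA1, CKM and MYH4, summed to between 57660.0 and 81220.0 RPKM in the 30 muscles, as the EDL label implies. Of the markers of cartilage and bone, ACAN and IBSP stayed under 0.1 RPKM in every mouse.

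A gene was tested where its mean was above 3 RPKM in at least 1 of the groups compared, and called higher or lower where the adjusted p was under 0.05 over all genes tested and the fold change above 1.5 (limma, Benjamini-Hochberg adjustment). Across the 6 groups 23 of the 44 chains passed this level somewhere, 5 reached between 1 and 3 RPKM, and 16 never passed 1 RPKM. Of the families, 9 of 11 fibrillar, 4 of 8 basement membrane, 3 of 6 COL6 and 4 of 9 FACIT chains passed it. COL20A1, with a highest group mean of 2.56 RPKM, lay just outside and COL24A1, at 3.19 RPKM, just inside. The chains that never passed 1 RPKM include COL4A3, COL4A4, COL4A5 and COL4A6, the chains of the specialised type IV networks of kidney, lung and some epithelia, and COL10A1, the collagen of growth plate cartilage.

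The 2 chains of type I collagen were the most abundant in unimmunized muscle, and their genes lie on different chromosomes, COL1A1 at chr11:94936224-94953042 and COL1A2 at chr6:4505618-4541543 (RefSeq, build GRCm38.p6). COL4A1 and COL4A2, which are made together into the common type IV heterotrimer, instead lie head to head, COL4A1 at chr8:11198423-11312889 on the minus strand and COL4A2 at chr8:11312805-11449287 on the plus strand, so that their annotated starts overlap. RefSeq held a promoter for 35 of the 44 chains. The 150 bases before the start of 3 chains that fell in EAE muscle are shown, 1 each for types I, III and VI, so that the upstream sequences of chains that moved together can be compared; capitals mark a CCAAT box in COL1A2 and a TATAAA box in COL3A1.
COL1A2, chr6:4505468-4505617, plus strand: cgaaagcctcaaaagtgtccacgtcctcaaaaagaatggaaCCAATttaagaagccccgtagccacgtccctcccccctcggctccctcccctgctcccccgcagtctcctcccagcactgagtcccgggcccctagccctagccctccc
COL3A1, chr1:45311388-45311537, plus strand: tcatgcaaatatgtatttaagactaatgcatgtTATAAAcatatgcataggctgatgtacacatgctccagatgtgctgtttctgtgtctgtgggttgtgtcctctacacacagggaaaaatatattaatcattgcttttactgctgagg
COL6A1, chr10:76726045-76726194, minus strand: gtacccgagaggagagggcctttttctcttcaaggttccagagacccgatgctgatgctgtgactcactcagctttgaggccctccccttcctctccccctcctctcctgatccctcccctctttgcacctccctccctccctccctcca
Neither letter string was common to these chains. Within 250 bases upstream, on either strand, CCAAT was present in 7 of the 15 chains with a promoter that were called lower in EAE against Ctrl on day 14, beside 33.8% of all 32851 mouse promoters, TATAAA in 2 of 15 beside 12.4%, and the GC box GGGCGG in 10 of 15 beside 32.7%. Over all 35 chains with a promoter, whether they fell or not, CCAAT was present in 12, TATAAA in 5 and GGGCGG in 21. These are descriptions of letters, and no site was tested.

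At the peak of disease, EDL muscle of EAE mice held less mRNA of nearly every collagen chain tested than muscle of unimmunized mice. Of 22 chains tested, 20 fell and 1 rose, where 11.8% of all 8771 genes tested were called lower and 14.6% higher. COL23A1 passed the test level only through EAE muscle, and at least COL11A1, COL12A1 and COL8A2 only through Ctrl muscle. Under a scaling by medians of ratios the calls over all genes moved from 1282 higher and 1036 lower to 953 and 1258, and the median log2 fold change of all genes moved from 0.11 to 0.02, while the chains stayed at 20 lower and 1 higher. The median log2 fold change was -1.26 over the 22 chains and 0.11 over all genes tested. In 18 of the 20 chains that fell, every EAE mouse lay below every Ctrl mouse, which held for 11% of all genes tested, and COL6A1 and COL12A1 were the 2 that overlapped. COL8A2, a short network-forming chain, was the only tested chain not called, at -0.48 ± 0.23 (adjusted p = 0.0991). Without the 3 mice numbered 1, 21 chains fell and 1 rose. In bulk muscle, fewer cells of a type and less mRNA per cell cannot be told apart.

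**Figure D1:**
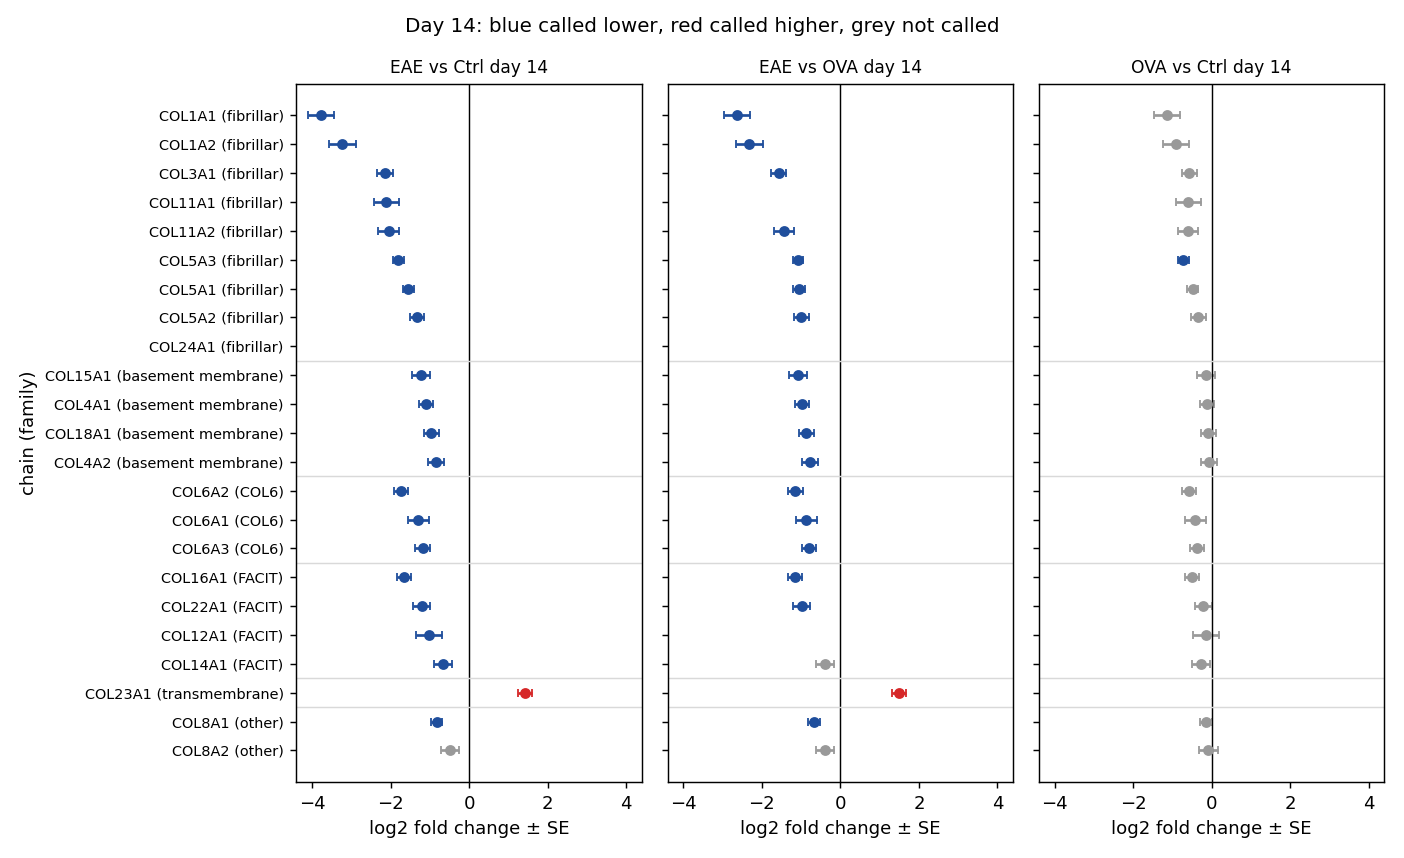
Log2 fold change ± SE (horizontal axis) of each tested collagen chain (vertical axis, by family) in the 3 comparisons of day 14, from limma on 5 mice per group. Blue chains were called lower, red higher and grey neither, and COL23A1 is the only chain to the right of 0 in both EAE comparisons.

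Type I collagen fell most. COL1A1 was at 196, 557, 290.1, 686 and 429 RPKM in the 5 Ctrl mice, 179.5, 106, 221, 248 and 177 in the OVA mice and 23.9, 20.6, 45.5, 39.9 and 21.8 in the EAE mice. The EAE values did not overlap those of either other group, whereas the OVA values overlapped the lower Ctrl values. The log2 fold change of EAE against Ctrl was -3.77 ± 0.33 (adjusted p = 1.20e-06), a 13.6-fold difference. COL1A2 was at 163, 561, 318, 705 and 471 RPKM in Ctrl, 182, 146, 261, 292 and 202 in OVA and 33.3, 32.2, 66.1, 57.2 and 32.4 in EAE muscle. Again all EAE mice were below all others, and the log2 fold change was -3.23 ± 0.34 against Ctrl (adjusted p = 4.68e-06). The Ctrl mice of day 14 differed widely among themselves in both chains, with the mouse numbered 1 the lowest and that numbered 4 the highest.

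The other fibrillar chains followed. COL3A1, the chain of the thinner reticular fibrils, was at 77.4, 158, 129, 158 and 143 RPKM in Ctrl, 89.2, 74.0, 82.4, 95.0 and 96.2 in OVA and 36.8, 20.7, 32.4, 35.1 and 24.1 in EAE muscle. The highest EAE mouse was below the lowest of the other 10, and the log2 fold change against Ctrl was -2.14 ± 0.20 (adjusted p = 1.43e-06). The type V chains, which start fibrils and set their width, fell by 1.80 (COL5A3), 1.55 (COL5A1) and 1.33 (COL5A2) on the log2 scale. The type XI chains, relatives of type V best known from cartilage, fell by 2.11 (COL11A1) and 2.05 (COL11A2), from means of 4.12 and 15.0 RPKM in Ctrl. Thus all 8 fibrillar chains tested fell, with a median of -2.08. COL2A1, the main fibrillar chain of cartilage, stayed under the test level, with means of 2.06 RPKM in Ctrl, 0.928 in OVA and 0.218 in EAE muscle.

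**Figure D2:**
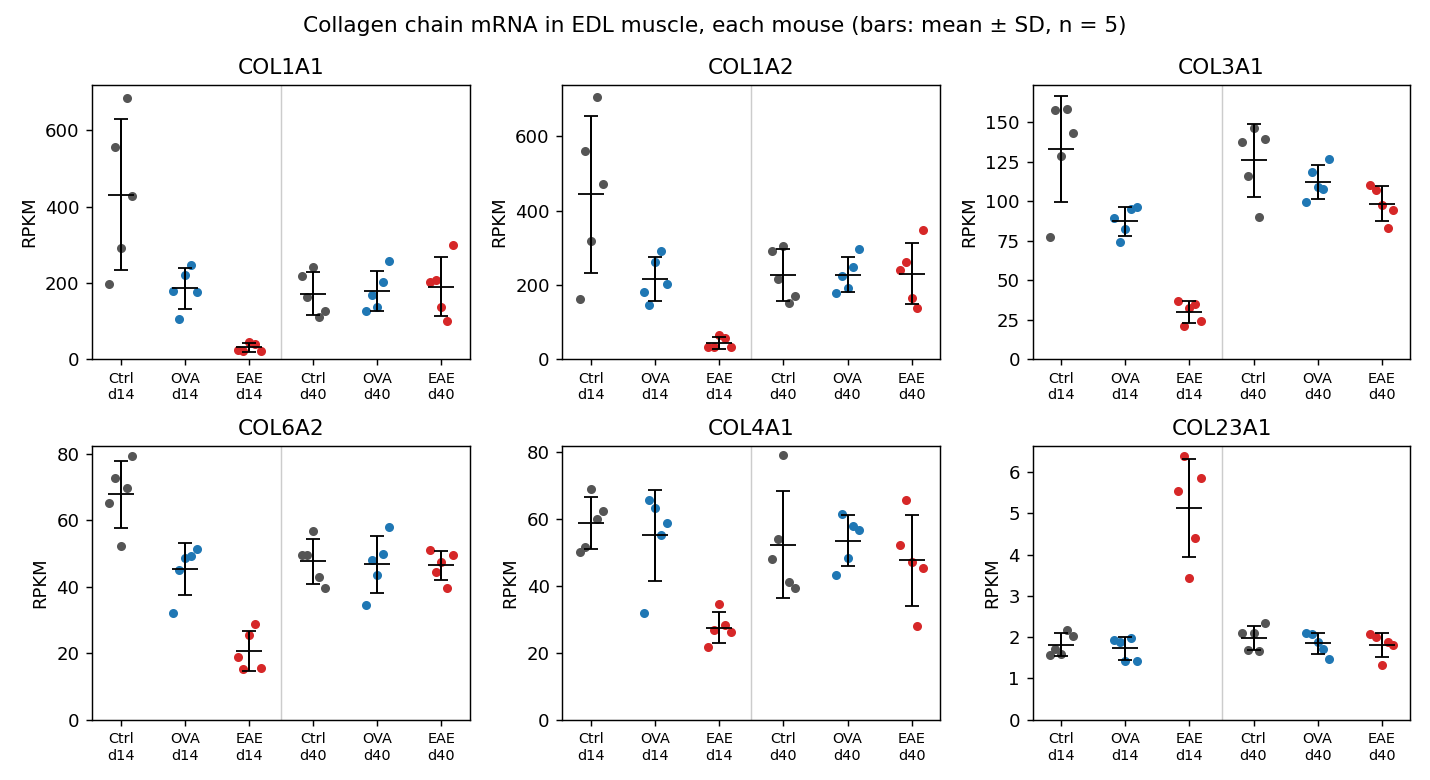
RPKM (vertical axes, linear and from 0) of 6 collagen chains in each of the 30 mice by group and day (horizontal axes), with bars at the mean ± SD of 5 mice. The EAE mice of day 14 are the lowest group by mean in the 5 panels from COL1A1 to COL4A1 and the highest in COL23A1, and the 3 groups of day 40 overlap in every panel.

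The chains of the other 3 families fell as well, each by less than type I. COL6A2 was at 65.3, 72.8, 52.3, 69.6 and 79.2 RPKM in Ctrl, 32.2, 44.9, 48.7, 49.3 and 51.4 in OVA and 18.9, 15.2, 25.5, 28.7 and 15.7 in EAE muscle, 3 ranges that did not overlap. Its log2 fold change was -1.73 ± 0.18 against Ctrl (adjusted p = 4.99e-06), and those of COL6A1 and COL6A3, the other chains of the filament, were -1.29 ± 0.26 and -1.18 ± 0.18. Of the basement membrane chains, COL4A1 was at 50.2, 51.7, 68.9, 60.0 and 62.5 RPKM in Ctrl, 32.0, 65.8, 63.3, 55.3 and 58.9 in OVA and 21.8, 26.9, 34.7, 28.2 and 26.2 in EAE muscle. All EAE mice were below all Ctrl mice, but the OVA mouse numbered 1 lay within the EAE range. The log2 fold changes against Ctrl were -1.09 ± 0.18 for COL4A1, -0.84 ± 0.20 for COL4A2, -1.23 ± 0.23 for COL15A1 and -0.96 ± 0.20 for COL18A1, the source of endostatin. Of the FACIT chains, COL16A1 was at 8.79, 12.0, 8.03, 12.8 and 10.7 RPKM in Ctrl, 8.42, 5.73, 6.37, 7.46 and 8.39 in OVA and 3.52, 2.31, 4.18, 3.80 and 2.55 in EAE muscle. It fell by 1.66 on the log2 scale against Ctrl. COL22A1, a chain of the junction between muscle and tendon, fell by 1.21, and COL12A1 and COL14A1, which decorate type I fibrils, by 1.02 and 0.66. COL12A1 and COL14A1 depended on single mice. COL12A1 fell under the test level without the Ctrl mouse numbered 2 or 5, and COL14A1 lost its call without either of these mice or without the EAE mouse numbered 1, 2 or 5. The median log2 fold change was -1.03 over the 4 basement membrane chains tested, -1.29 over 3 COL6 chains and -1.11 over 4 FACIT chains, and the difference between families was not tested. COL8A1, the partner of COL8A2, fell by 0.82.

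COL23A1, a membrane-spanning collagen, was the only tested chain called higher. Its mean passed 3 RPKM only in EAE muscle of day 14, so the filter let it be tested only because it was high there. It was at 1.58, 1.71, 1.59, 2.18 and 2.03 RPKM in Ctrl, 1.93, 1.88, 1.43, 1.99 and 1.42 in OVA and 5.54, 6.38, 3.44, 4.41 and 5.85 in EAE muscle. Every EAE mouse was above the other 10 mice, as was so against Ctrl for 21.2% and against OVA for 18% of all genes tested, with a log2 fold change of 1.42 ± 0.18 against Ctrl (adjusted p = 1.80e-05) and 1.49 ± 0.18 against OVA (adjusted p = 1.47e-05). Among the 21 chains that never passed the level of 3 RPKM, a fit with no filter called 3 higher and 6 lower in EAE against Ctrl, and 3 higher and 4 lower against OVA. In the same fit 9.35% of 17225 genes were called higher and 11.4% lower against Ctrl, and 6.94% and 7.33% of 17195 against OVA. The 3 higher chains were the same in both. COL19A1, a FACIT-like chain, was at 0.0971, 0.0984, 0.0858, 0.199 and 0.115 RPKM in Ctrl, 0.102, 0.0585, 0.123, 0.0905 and 0.0872 in OVA and 1.26, 1.06, 0.325, 0.513 and 0.802 in EAE muscle, with a log2 fold change of 1.93 ± 0.26 against Ctrl. COL7A1, the anchoring fibril chain, was at 0.756, 0.666, 0.629, 1.96 and 0.757 RPKM in Ctrl, 0.375, 0.436, 0.300, 0.351 and 0.344 in OVA and 2.26, 2.30, 1.53, 1.68 and 1.31 in EAE muscle. It differed from Ctrl by 0.95 ± 0.25 and from OVA by 2.03 ± 0.25, and 1 Ctrl mouse lay within the EAE range. COL25A1, a transmembrane chain needed by motor axons to enter muscle, was at a mean of 0.165 RPKM in EAE muscle against 0.0479 in Ctrl, and its ranges overlapped those of OVA. All 3 chains stayed under 3 RPKM in every mouse of day 14.

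Set against OVA mice, which had received the same adjuvant, the EAE mice of day 14 showed lower collagen mRNA as well. Of 20 chains tested, 17 fell and 1 rose, beside 9.28% of the 8674 genes tested that were called lower and 11% higher, and the median over the chains was -0.99. Under the median-of-ratios scaling the calls over all genes went from 957 higher and 805 lower to 714 and 999, and the chains stayed at 17 lower and 1 higher. The 18 chains called were all among the 21 called against Ctrl, but both comparisons use the same EAE mice. Of the other 3, COL11A1 and COL12A1 were under the test level here and COL14A1 was not called, at -0.39 ± 0.23. COL8A2, which passed the test level here only through OVA muscle, was not called either. COL1A1 differed by -2.64 ± 0.33 (adjusted p = 2.11e-05), COL3A1 by -1.57 ± 0.20, COL6A2 by -1.15 ± 0.18 and COL4A1 by -0.97 ± 0.18. The ranges of EAE and OVA mice did not overlap in 11 of the 17 chains that fell, where this held for 8.2% of all genes tested. The 6 that overlapped were COL4A1, COL4A2, COL15A1, COL18A1, COL6A1 and COL6A3, so that none was fibrillar. The OVA mouse numbered 1 was low in both families, at summed RPKM of 63.8 for basement membrane and 54.4 for COL6 chains. The other OVA mice were at 118.5 to 137 and 83.4 to 89.3, and the part of this mouse in the overlaps was not tested. All 18 calls were kept when any mouse was left out and without the 3 mice numbered 1.

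The comparison of OVA with Ctrl bears on the adjuvant with ovalbumin. In OVA against Ctrl on day 14, 1 of 21 chains was called, COL5A3, beside 0.0472% of the 8471 genes tested that were called lower and 0.0944% higher (4 and 8 genes, or 9 and 9 under quantile normalization, with 1 chain called in both). COL5A3 was at 23.6, 17.0, 20.5, 24.7 and 24.1 RPKM in Ctrl, 13.0, 10.9, 12.3, 14.2 and 15.9 in OVA and 6.22, 5.59, 7.44, 6.87 and 5.03 in EAE muscle. The 3 ranges did not overlap. Ctrl and OVA mice were apart in 3 chains, COL5A3, COL6A2 and COL5A1, all lower in OVA, as in 1.61% of all genes tested. For COL5A3 the log2 fold change of OVA against Ctrl was -0.72 ± 0.14 (adjusted p = 0.0478). It was no longer called in 8 of 10 fits that omitted 1 mouse, nor without the 3 mice numbered 1, where the log2 fold change was -0.69 (adjusted p = 0.202). All 21 chains had a negative log2 fold change, as did 50.9% of all genes tested, with a median of -0.38 over the chains and close to 0 over all genes. Without adjustment, 8 of the 21 had a p under 0.05, beside 9.69% of all genes tested. They were COL1A1 at -1.13 ± 0.33, COL1A2 at -0.91 ± 0.34, COL5A3, COL11A2, COL6A2, COL3A1, COL16A1 and COL5A1, so 6 fibrillar chains, 1 COL6 and 1 FACIT chain. The 4 basement membrane chains lay between -0.14 and -0.07. In mean level, the order on day 14 was Ctrl, OVA, EAE from high to low in each of the 20 chains that fell, and since the chains share their mice this order was not tested.

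The make-up of the collagen mRNA differed between groups too. Summed over all 44 chains, RPKM was 1360.0 ± 481 (SD, n = 5) in Ctrl, 768 ± 136 in OVA and 254 ± 58.1 in EAE muscle on day 14. Fibrillar chains made up 77.8% ± 6.36 of that sum in Ctrl, 69.7% ± 6.76 in OVA and 49.3% ± 3.70 in EAE muscle. The share of basement membrane chains went from 9.74% ± 3.44 in Ctrl to 23.8% ± 2.98 in EAE muscle, and that of COL6 chains from 9.10% ± 2.42 to 15.7% ± 1.17. The share of FACIT chains went from 2.32% ± 0.566 to 5.63% ± 0.243. On day 40 the sum over all chains was 830 ± 200.5 in Ctrl, 820 ± 143 in OVA and 790 ± 194 in EAE muscle. The fibrillar shares were then 70.45%, 70.3% and 71.7%. In sum and fibrillar share, Ctrl muscle of day 40 was thus nearer to OVA muscle of day 14 than to Ctrl muscle of day 14. These sums and shares are descriptions without a test.

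**Figure D3:**
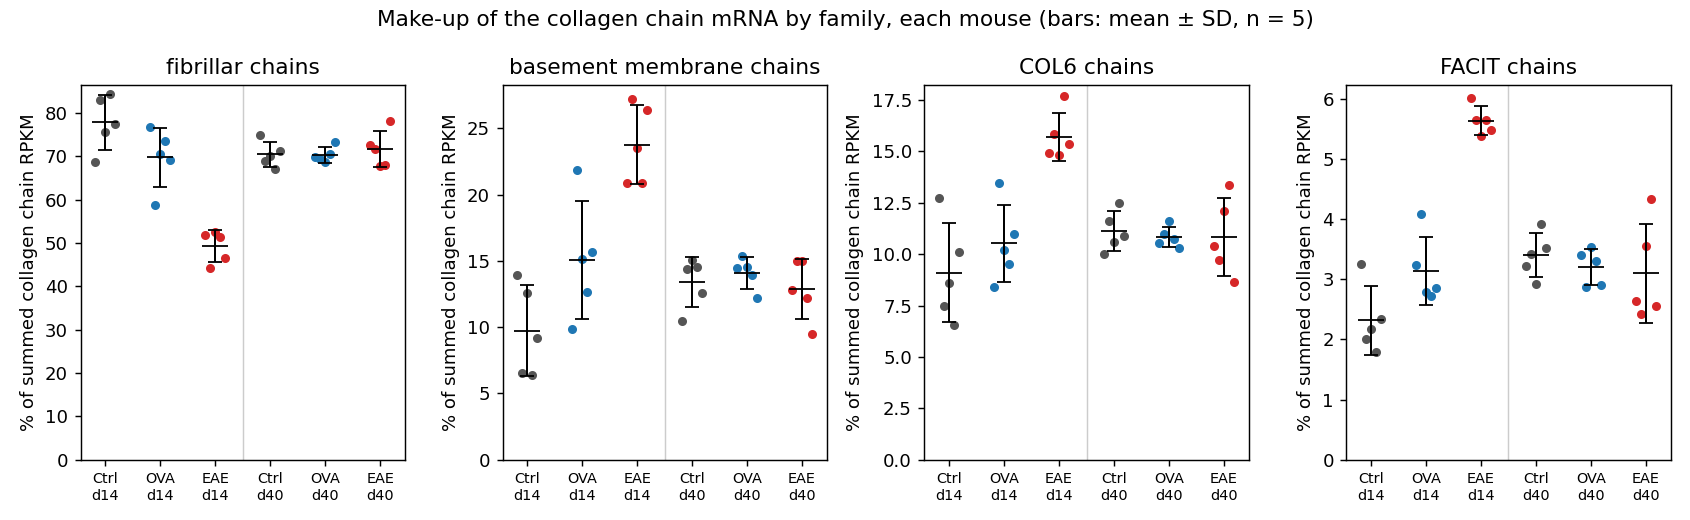
Share of each family in the summed RPKM of all 44 collagen chains (vertical axes, percent, from 0) in each of the 30 mice by group and day, with bars at the mean ± SD of 5 mice. In EAE muscle of day 14 the fibrillar share was 44.2% to 52.4%, below every other mouse, and the other 3 shares were higher than in the remaining groups on average.

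Ratios between chains within a mouse do not depend on the scaling of its library. Type I collagen is built from 2 chains of COL1A1 and 1 of COL1A2. The ratio of COL1A1 to COL1A2 RPKM was 0.998 ± 0.121 (SD, n = 5) in Ctrl, 0.857 ± 0.0927 in OVA and 0.682 ± 0.0291 in EAE muscle on day 14. EAE mice spanned 0.638 to 0.716 and Ctrl mice 0.911 to 1.21, without overlap, and the mean log2 ratio differed by -0.54 (adjusted p = 0.0212, two-sided exact permutation test, adjusted over the 16 ratio tests made). Against OVA the difference was -0.32 (adjusted p = 0.0212, exact permutation). The ratio of COL3A1 to COL1A1 moved the other way, from 0.337 ± 0.0850 in Ctrl and 0.499 ± 0.133 in OVA to 1.05 ± 0.313 in EAE muscle. The log2 difference was 1.63 against Ctrl and 1.06 against OVA (adjusted p = 0.0212 for both, exact permutation test). COL1A1 thus fell by more than either COL1A2 or COL3A1. The ratio of COL4A1 to COL4A2, the head-to-head pair, was 1.57 ± 0.0874 in Ctrl, 1.505 ± 0.0564 in OVA and 1.31 ± 0.0702 in EAE muscle. It was lower in EAE, with log2 differences of -0.25 against Ctrl and -0.20 against OVA (adjusted p = 0.0212 for both, exact permutation test), and the ranges did not overlap. The ratio of COL6A1 to COL6A2 was 0.531 ± 0.157 in Ctrl and 0.696 ± 0.108 in EAE muscle, a difference that did not pass the test (log2 difference 0.44, adjusted p = 0.127, exact permutation). With 5 mice against 5 the smallest unadjusted p is 0.00794, which the 6 passing tests reached. On day 40 no ratio passed the test, with adjusted p from 0.14 to 0.532 (exact permutation). In the order above, the 4 mean ratios were then 0.756, 0.774, 1.505 and 0.6635 in Ctrl muscle. In EAE muscle they were 0.810, 0.586, 1.54 and 0.589. Each Ctrl mean of day 40 lay between the Ctrl and EAE means of day 14, and the difference of Ctrl ratios between days was not tested.

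**Figure D4:**
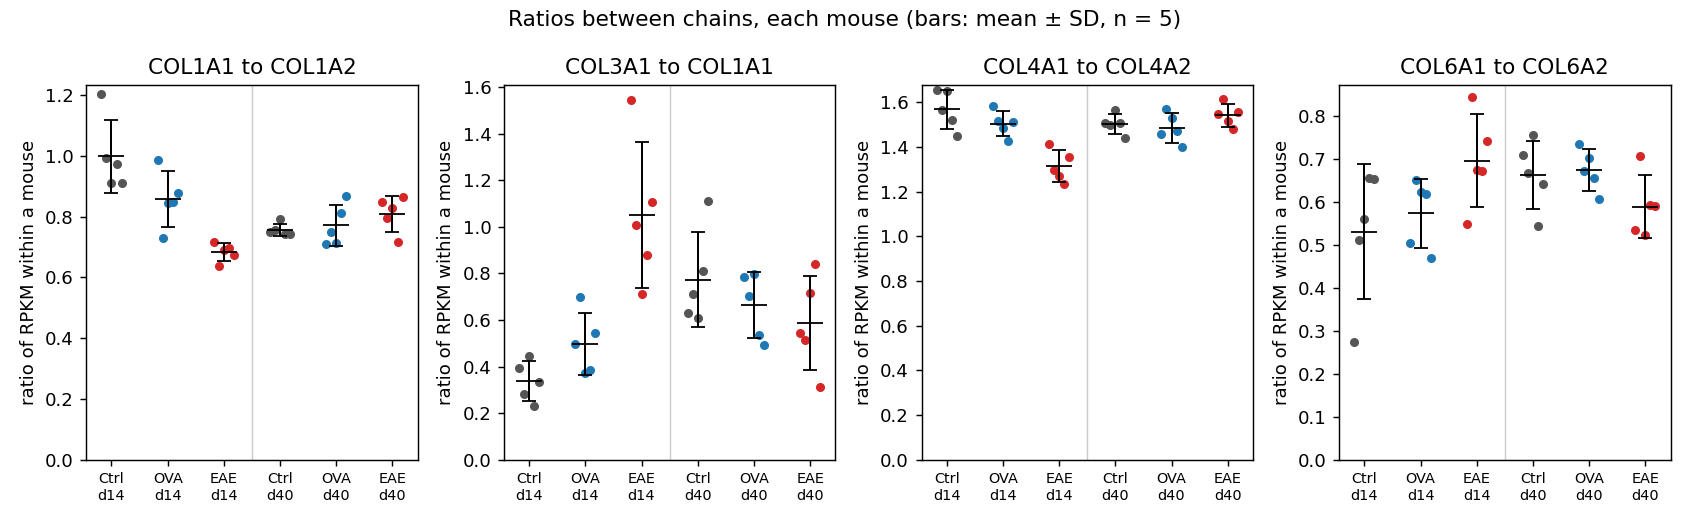
Ratio of RPKM between 2 collagen chains within a mouse (vertical axes, linear and from 0) in each of the 30 mice by group and day, with bars at the mean ± SD of 5 mice. On day 14 the EAE mice lie apart from both other groups in the first 3 panels and overlap them in the last, and on day 40 the 3 groups overlap in all panels.

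By the second remission these differences were not detected. On day 40, limma called 0 of 20 chains in EAE against Ctrl, beside 0.391% of the 8691 genes tested that were called lower and 0.069% higher, and 0 of 18 in EAE against OVA, beside 0.174% and 0.0349% of 8598. OVA against Ctrl also gave 0 of 20 chains, as it gave 0% of all 8706 genes. At an unadjusted p under 0.05 there were 6, 0 and 1 chains, beside 27.9%, 17.4% and 3.12% of all genes. Quantile normalization took the calls over all genes from 6 higher and 34 lower to 5 and 3 in EAE against Ctrl, and from 3 and 15 to 0 and 1 in EAE against OVA, with 0 chains called in both. COL1A1 was at 219, 163, 240.5, 112 and 126 RPKM in Ctrl, 127, 168, 137, 202 and 257 in OVA and 203, 208, 137, 98.7 and 300.5 in EAE muscle. The 3 ranges overlapped throughout, and EAE differed from Ctrl by 0.10 ± 0.28. COL3A1 was at 138, 116, 146, 90.1 and 139 RPKM in Ctrl, 99.3, 118, 109, 108 and 127 in OVA and 110.5, 107, 97.9, 83.0 and 94.4 in EAE muscle. Its difference from Ctrl was -0.34 ± 0.12 with an adjusted p of 0.0965. The lowest adjusted p was 0.059, for COL5A2 at -0.43 ± 0.12, followed by COL24A1 at -0.73 ± 0.23. In EAE against Ctrl 18 of the 20 chains had a negative value, with a median of -0.19, beside 59.7% and -0.05 over all genes. Without the Ctrl mouse numbered 4, COL24A1 and COL12A1 were called lower, at -0.85 and -0.62. In that fit the calls over all genes also went up, from 6 higher and 34 lower to 21 and 181 of 8746.

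Between the days, chains rose in EAE muscle, and the EAE effect itself changed. From day 14 to day 40, 16 of 19 chains were higher in EAE mice and 1 was lower, beside 8.36% and 12.7% of all 8709 genes tested. Under the median-of-ratios scaling the calls over all genes went from 728 higher and 1106 lower to 978 and 819, and those of the chains to 17 and 1. The 2 sets of EAE mice did not overlap in 15 of the 16 that rose, as in 10.2% of all genes. COL1A1 rose from 30.3 ± 11.5 to 189 ± 77.3 RPKM (SD, n = 5), with a log2 fold change of 2.62 ± 0.32, and COL3A1 from 29.8 ± 7.04 to 98.6 ± 10.9 RPKM, by 1.75 ± 0.17. COL23A1 fell from 5.12 ± 1.19 to 1.81 ± 0.298 RPKM, a log2 fold change of -1.43 ± 0.16. It entered this test, and those of the change below, only through its EAE level on day 14. In the test of the change against Ctrl below, COL11A1, which was called upwards, entered only through its Ctrl level on day 14. OVA muscle gave 0 calls in 19 chains in limma, with 2 at an unadjusted p under 0.05 (COL5A3 and COL3A1; 24.6% of all genes), beside 2.25% of the 8648 genes tested called higher and 1.71% lower. Of these, COL5A3 passed the adjusted p but not the fold threshold, at 0.56 ± 0.14 (adjusted p = 0.0134). The difference between EAE and Ctrl changed from day 14 to day 40 in 18 of 23 chains, upwards in 17 and downwards in COL23A1, beside 11.7% and 20.9% of all 9013 genes. It did so by 3.87 ± 0.46 for COL1A1 (adjusted p = 3.92e-07), 1.70 ± 0.20 for COL5A3 and 1.70 ± 0.23 for COL6A2. Against OVA it changed in 15 of 20, upwards in 14 and downwards in COL23A1, beside 8.16% and 13.7% of 8935 genes. With the median-of-ratios scaling, the calls over all genes went from 1059 upwards and 1888 downwards to 1374 and 1379 for the change against Ctrl, and from 729 and 1222 to 954 and 801 for that against OVA, while those of the chains were 18 and 1, and 15 and 1.

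The Ctrl mice themselves differed between days. In these, day 40 was below day 14 in 3 of 22 chains and above it in 1, beside 4.35% and 5.02% of all 8788 genes tested. COL1A1 was lower by a log2 fold change of -1.25 ± 0.32 (adjusted p = 0.00784), COL1A2 by -0.86 ± 0.31 and COL11A2 by -0.63 ± 0.24, but the ranges of the 2 days overlapped in each. For COL1A1 this fall in Ctrl mice is part of the change of 3.87 in EAE against Ctrl, beside 2.67 against OVA. COL24A1, a fibrillar chain known from bone, was at 0.741, 1.44, 0.760, 2.87 and 2.06 RPKM in Ctrl on day 14 and 3.43, 3.78, 4.62, 2.17 and 1.98 on day 40. It was the chain called higher, at 1.08 ± 0.33, again with overlapping ranges, and it passed the test level only through day 40. Of these 4 calls, that of COL1A1 alone was kept when any 1 mouse was left out: COL1A2 lost its call without the mouse numbered 2, 4 or 5 of either day, COL11A2 without those mice or without mouse 3 of day 40, and COL24A1 without mouse 1 or 3 of day 14, while without mouse 3 of day 40 it fell under the test level.

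**Figure D5:**
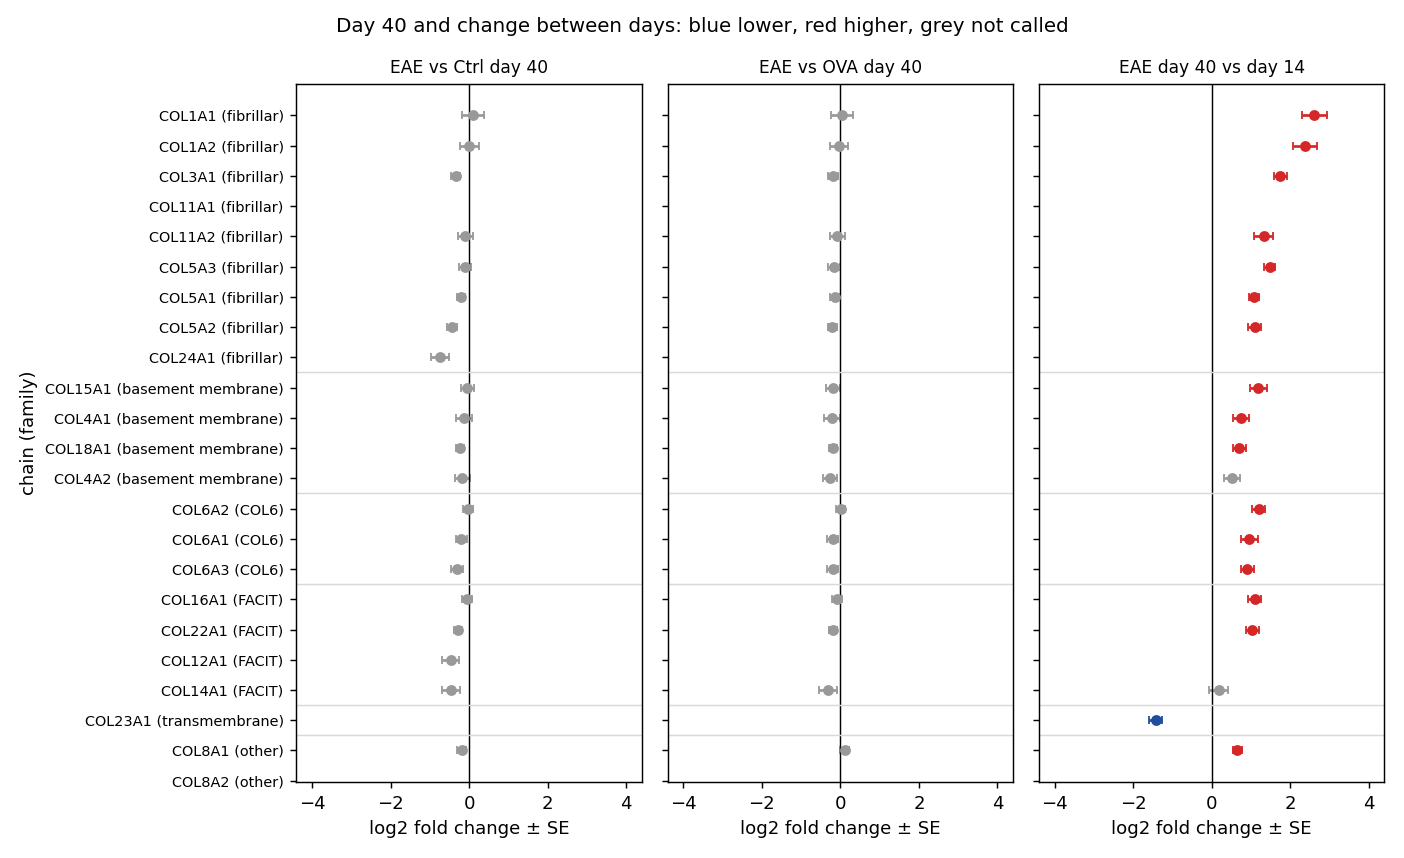
Log2 fold change ± SE (horizontal axis) of each tested collagen chain (vertical axis, by family) in EAE against Ctrl and against OVA on day 40, and in EAE on day 40 against day 14, from limma. All chains of the day 40 comparisons are grey, between -0.73 (COL24A1) and 0.11 (COL8A1), while 16 chains are red and COL23A1 is blue in the comparison between days.

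Other genes of the collagen pathway were counted in 5 lists of their known members. Over all genes tested, 11.8% were called lower and 14.6% higher in EAE against Ctrl on day 14. Of the genes that fold and hydroxylate chains in the endoplasmic reticulum, 16 of 20 were tested in EAE against Ctrl on day 14, and 6 fell and 1 rose. Those that fell included SERPINH1, the collagen chaperone, at -1.12 ± 0.19, CRTAP at -1.05 ± 0.16 and FKBP10 at -1.49 ± 0.19, while P4HB, the prolyl hydroxylase subunit that also acts as a general disulfide isomerase, rose by 0.61 ± 0.19. Of the genes that trim procollagen or cross-link fibrils, 6 of the 7 tested (of 12) fell, among them LOXL2 at -2.26 ± 0.17, PCOLCE at -1.53 ± 0.18 and BMP1 at -1.54 ± 0.16. Lysyl oxidase itself, LOX, was at -0.04 ± 0.37 and was not called. Of the proteoglycans that bind collagen, 6 of 9 tested (of 10) fell, with FMOD at -1.53 ± 0.17 and KERA at -1.95 ± 0.25. Of the collagen receptors, 2 of 5 tested (of 10) fell and ITGB1, the β chain of the collagen-binding integrins and of many others, rose at 0.62 ± 0.10. Of the other basement membrane genes, 3 of 9 tested (of 10) fell, among them NID1 at -0.93 ± 0.19, and LAMA5 rose at 0.83 ± 0.23. The median log2 fold change was -0.40 for the folding genes, -0.86 for trimming and cross-linking, -0.63 for proteoglycans, -0.41 for receptors and -0.44 for basement membrane genes, beside 0.11 over all genes. Against OVA, the counts of lower and higher genes were 6 and 0 of 16 for folding, 3 and 0 of 7 for trimming and cross-linking, 5 and 0 of 9 for proteoglycans, 0 and 1 of 4 for receptors and 2 and 1 of 10 for basement membrane genes. Over all genes tested against OVA, 9.28% were called lower and 11% higher. Whether any list differed from these shares was not tested. On day 40 none of these 5 lists gave a call in EAE against Ctrl or OVA in limma. Few genes were called at all, 0.391% lower and 0.069% higher against Ctrl, and 0.174% and 0.0349% against OVA.

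Markers of cell types were counted in the same way, beside the same 11.8% of all genes tested called lower and 14.6% higher. In EAE against Ctrl on day 14, 8 of 9 fibroblast markers tested (of 10) fell, including PI16 at -2.28 ± 0.24 and THY1 at -1.94 ± 0.20, while PDGFRA was at -0.16 ± 0.16 and was not called. Their summed level was 1121 to 1361 RPKM in Ctrl, 751 to 1059 in OVA and 552 to 770.4 in EAE muscle. Of the tendon markers, 5 of 7 tested (of 8) fell, with TNMD at -2.83 ± 0.27 and COMP at -1.28 ± 0.18, and SCX, the transcription factor of tendon cells, rose at 2.12 ± 0.34. SCX lies within another gene on the opposite strand, so that its value is uncertain where reads are counted without strand. Their summed level was 399 to 511 RPKM in Ctrl, 401 to 486 in OVA and 247 to 372 in EAE muscle. Of the endothelial markers 3 of 12 fell, and none of 5 mural or 5 Schwann cell markers tested was called; the endothelial sum was 159 to 209.8 RPKM in Ctrl, 146 to 239 in OVA and 128 to 189 in EAE muscle. Of 6 macrophage markers tested (of 7) 3 fell. None of the 8 fast fibre markers was called, but their sum was 69960.0 to 81220.0 RPKM in Ctrl and 57660.0 to 66740.0 in EAE muscle, without overlap. None of the 6 cartilage and bone markers reached the test level. The median log2 fold change was -0.97 for fibroblast, -1.02 for tendon, -0.27 for endothelial, 0.11 for mural, -0.24 for Schwann cell, -0.56 for macrophage and -0.16 for fast fibre markers. The part of these markers in the result for the chains was not tested. On day 40 the fibroblast sum was 775 to 1002 RPKM in Ctrl and 788 to 1011 in EAE muscle.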

How the data were processed

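RNA from 30 EDL muscles, 5 in each of 6 groups, was sequenced as poly(A) libraries with paired reads. Per the submitters' processing notes and the study's methods, the authors aligned the reads to mm10 with Subread, counted them in RefSeq genes with featureCounts, and computed RPKM. The strand setting of the counting is not given in the sources used here, and 13 of the chains share exon bases with another gene. The deposited values are log2(RPKM + 1), with 0.0001 standing for no read (25.8% of values), and were converted back to RPKM. This scale was taken from the values: on it 87.6% of low values examined were whole numbers of reads within 0.1, against 57% if they were read as RPKM and 77.5% on a natural log scale. The reads in genes, estimated from the same steps, came to a median of 21.7 M per library.

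Genes whose group mean passed 3 RPKM in a compared group were tested on log2(RPKM + 0.1) with limma 3.58.1 (R 4.3.3, trended prior), fitting each day's 15 mice together and all 30 for comparisons between days, and Benjamini-Hochberg adjustment over all genes tested. Ratios were tested by two-sided exact permutation (SciPy 1.17.1). Scripts were tested on simulated data. The labels give 5 numbered samples per group without saying that each is a separate animal, so the p-values measure the spread between these samples. The collagen chains, the lists of other genes, and the rule for naming genes were chosen with earlier results of these data known. By that rule any collagen chain could be named, and other genes only from these lists; the list genes given as examples were picked after their values were seen. Promoters are RefSeq's for GRCm38.p6. Alternatives were another pseudocount, 2 other filters, 2 other scalings, no fold threshold, a replicate block, other sets of mice in the model and each mouse left out. The alternative without the 3 mice numbered 1 was added after the data were seen.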

Additional observations from a re-analysis of the deposited data

Results flagged for a closer look

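In 5 of the 138 sets of 5 mice examined (23 chains in 6 groups), 1 mouse stood apart from the other 4 by Dixon's criterion, which chance gives in about 1 of 20 sets. All 5 were the lowest of their group and carried the number 1. COL3A1 was at 77.4 RPKM in the Ctrl mouse of day 14, against 128.8 to 158.3 in the others, and COL5A2 at 8.10 RPKM in the same mouse, against 15.4 to 18.6. COL4A1 was at 32.0 RPKM in the OVA mouse of day 14, against 55.3 to 65.8, and COL4A2 at 20.2 RPKM, against 38.7 to 43.4. COL15A1 was at 17.2 RPKM in the OVA mouse of day 40, against 19.9 to 21.0.

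The difference between EAE and Ctrl changed from day 14 to day 40 beyond the spread between mice in 18 chains (limma, interaction term, adjusted p under 0.05 and fold above 1.5). For the fibrillar chains the log2 change was 3.87 for COL1A1, 3.24 for COL1A2, 2.00 for COL11A1, 1.96 for COL11A2, 1.80 for COL3A1, 1.70 for COL5A3, 1.34 for COL5A1 and 0.90 for COL5A2. For the basement membrane chains it was 1.19 for COL15A1, 0.96 for COL4A1 and 0.73 for COL18A1. COL6 chains gave 1.70 for COL6A2, 1.09 for COL6A1 and 0.88 for COL6A3, and FACIT chains 1.60 for COL16A1 and 0.92 for COL22A1. COL8A1 changed by 0.63, which was not called without Ctrl mouse 2 or EAE mouse 5 of day 14 or Ctrl mouse 4 of day 40, and COL23A1 changed in the other direction, by -1.55. COL11A1 entered this test only through its Ctrl level on day 14, and COL23A1 only through its EAE level on that day.

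Against OVA the same test passed in 15 chains. The log2 change was 2.67 for COL1A1, 2.28 for COL1A2, 1.38 for COL3A1, 1.37 for COL11A2, 0.92 for COL5A1, 0.92 for COL5A3 and 0.78 for COL5A2. It was 0.91 for COL15A1, 0.76 for COL4A1, 0.69 for COL18A1, 1.15 for COL6A2, 1.07 for COL16A1, 0.80 for COL22A1, 0.78 for COL8A1 and -1.52 for COL23A1. That of COL4A1 did not pass in 12 of 20 fits that omitted 1 mouse.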

How the results depend on the processing

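No result reversed. Of the values under the alternatives of chains called in the main fit, 1988 kept their direction and side of the threshold and 57 lost the threshold. These counts leave out chains called only under an alternative. They also leave out called chains that fell under the test level in an alternative. The count of chains called in OVA against Ctrl on day 14 was 1, but 0 with only the mice of the compared groups and 0 without the 3 day 14 mice numbered 1, and it was 0 to 1 with a mouse left out. In OVA muscle between days it was 0, but 2 (COL24A1 and COL7A1) with a filter of 1 RPKM and 2 with no filter, 1 (COL5A3) with no fold threshold, and 0 to 1 with a mouse left out. In EAE muscle between days it was 17, but 30 with no filter. With a mouse left out, the count was 0 to 2 in EAE against Ctrl on day 40 and 2 to 5 in Ctrl between days, and 19 to 22 and 18 in EAE against Ctrl and OVA on day 14. The log2 differences of 4 ratios then passed the test in 1 fit each: COL6A1 to COL6A2 ranged from 0.22 to 0.53 against Ctrl and from 0.20 to 0.36 against OVA on day 14 (passing without the EAE mouse numbered 1) and from -0.27 to -0.16 against OVA on day 40 (without the EAE mouse numbered 2), and COL1A1 to COL1A2 from 0.0717 to 0.141 against Ctrl on day 40 (without the EAE mouse numbered 4). The cause was not tested. The mice share only a number across groups: on day 14 the correlation of same-numbered deviations was 0.51 to 0.70 for number 1 and -0.73 to 0.44 for the others, and in EAE against OVA all 5 were positive, from 0.03 to 0.70. With the replicate block the counts were 21, 18 and 1 on day 14 (EAE against Ctrl, EAE against OVA, OVA against Ctrl), 0 in each comparison of day 40, 4, 0 and 17 between days (Ctrl, OVA, EAE), and 19 and 16 for the change against Ctrl and OVA. Depth limits the chains under 1 RPKM.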
